A study of Homo sapiens with 22 samples.

Results

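The genes described here are 32 genes of cholesterol and fatty acid synthesis, taken by symbol from the 28063 genes counted in each of 22 RNA-seq libraries of human acute myeloid leukaemia cells. All 32 were found, and all passed the filter on low counts that left 16794 genes for testing. They were placed in 5 roles: 7 enzymes of the mevalonate pathway, 11 enzymes that build cholesterol from squalene onwards, 6 regulators of the sterol regulatory element-binding proteins (SREBPs) or of sterol transport, 4 desaturases and elongases, and 4 enzymes that supply or build the fatty acid chain. The study measured how inhibition of SWI/SNF, a chromatin remodelling complex, changed transcripts in established lines named MOLM-13, THP-1 and MV-4-11, each with a KMT2A fusion.

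Cells make cholesterol from acetyl-CoA by way of mevalonate, farnesyl diphosphate, squalene and lanosterol, and make fatty acids from the same acetyl-CoA through malonyl-CoA. The genes of both pathways share transcription factors, the SREBPs, which are encoded by SREBF1 and SREBF2. SREBPs are held in the endoplasmic reticulum by SCAP and the INSIG proteins while sterols are plentiful, and are cut and sent to the nucleus when sterols run low. SREBF2 products act mainly on sterol genes and SREBF1 products mainly on fatty acid genes, and INSIG1 is itself a target gene.

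Each line had a group given dimethyl sulfoxide (DMSO, the solvent), a group given 1 µM BRM014 for 24 h and a group given it for 72 h. The ATPases that drive SWI/SNF, SMARCA4 and SMARCA2, are both blocked by BRM014. THP-1 had a group given 10 nM of the phorbol ester PMA for 48 h and then 24 h without it, which turns these monocytic cells towards macrophages, and a group given 3 µM DB2313, which blocks binding of the transcription factor PU.1 to DNA, for 72 h. Each of the 11 groups had 2 libraries, all from cells labelled wild type and grown in serum-containing medium, and whether the 2 are separate cultures is not stated, so that each p-value reflects only how far these libraries spread, perhaps for technical reasons. The hours that a DMSO library spent in culture are not given by library. Both times of a line were compared with its single DMSO group, and an effect of time in culture cannot be told apart from that of BRM014. Whether the DB2313 pair belongs to the same batch as the other THP-1 libraries is not stated either.

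The libraries held 15893489 to 21565666 reads in genes, and replicates correlated across genes at r = 0.989 to 0.997 on the log2 scale. The PMA pair stood apart in its spread, with a chi-square of 32.7 for each degree of freedom between its libraries against 3.23 to 11.4 in the other groups. The 11 myeloid markers had a summed level of 1340 to 11600 CPM (counts scaled to the same total of reads in genes in each library), with CD14 at 0 and 1 reads in MOLM-13 DMSO and CSF1R at 3 and 0 reads in MV-4-11 at 72 h. In THP-1 the sum was 3535 to 3684 CPM with DMSO, 1743 to 1778 CPM at 24 h and 1701 to 1761 CPM at 72 h of BRM014, and 2913 to 3032 CPM with DB2313. With PMA it was 11510 to 11610 CPM, of which LYZ made up a mean of 8366 CPM. The mean of LYZ was 1845 CPM with DMSO and 60.8 CPM with DB2313. At 24 h and 72 h of BRM014 it was 229 and 94.1 CPM. With DB2313 the means of CD14 (1.66 to 239 CPM), ITGAM (27.6 to 433 CPM), CEBPA, CD33, CSF1R and MPO were higher than with DMSO. Those of LYZ, PTPRC, SPI1, CD68 and FCGR1A were lower. At 72 h of BRM014 CD14, CD68, CEBPA and ITGAM were higher and the other markers lower. In MOLM-13 the sum was 1772 to 1928 CPM with DMSO and 3454 to 3535 CPM at 72 h. There the means of CEBPA (738 to 1726 CPM), CD68 (101 to 1014 CPM) and LYZ (213 to 408 CPM) were higher at 72 h, and those of MPO (167 to 7.03 CPM), CD33 (99.1 to 21.4 CPM), CSF1R (26.2 to 2.32 CPM), SPI1, PTPRC and FCGR1A were lower. Erythroid, adipocyte and hepatocyte markers summed to at most 0.307, 0.396 and 4.48 CPM in any library. The 5 lymphoid markers, led by NKG7, summed to 46.8 to 55.4 CPM in MOLM-13 DMSO and to 2.57 to 7.82 CPM with BRM014 there, and to 19.6 to 23.3 CPM in THP-1 DMSO and 55.8 to 67.8 CPM with DB2313. The 5 epithelial and fibroblast markers summed to 115 to 125 CPM in THP-1 at 72 h of BRM014, nearly all COL1A1, and to 69.8 to 76.1 CPM with DB2313, with EPCAM at most 0.221 CPM in those libraries. The share of reads outside annotated genes was 12.4% and 13.2% in MOLM-13 DMSO and 18.2% and 18.4% at 72 h. The part of these differences in the results below was not tested.

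Promoter sequence was read for 28 of the 32 genes from the RefSeq promoter table (GRCh38.p14), as the window from 250 bases before to 50 after the first listed start. ACAT2, FDFT1, SQLE and FASN were not matched. Letters of 4 motifs were searched on both strands: TCACNCCAC, a core of the sterol regulatory element, CCAAT, bound by NF-Y, GGGCGG, bound by SP1, and CACGTG, the E-box. NF-Y and SP1 are known partners of SREBPs. CCAAT was present in 18 of the 28 windows (64.3%) and in 34.6% of all 35116 windows of the table. GGGCGG was present in 26 (92.9%) against 45% of all windows, CACGTG in 4 (14.3%) against 7.26%, and TCACNCCAC in 1 (3.57%), that of SREBF2, against 1.13%. Among the 24013 windows of genes that were counted here, the shares were 34.7% for CCAAT, 53.4% for GGGCGG, 8.12% for CACGTG and 1.09% for TCACNCCAC. Base composition was not matched, and such matches describe letters and are not binding sites. The stretches outside exons of protein-coding genes are printed for 5 genes whose values are set against each other below: MSMO1 and SCD, a sterol enzyme and a desaturase; INSIG1 and INSIG2, paralogs whose transcripts moved differently; and SREBF2. Motif matches are in capitals.
MSMO1 (chr4:165327419-165327622, plus strand): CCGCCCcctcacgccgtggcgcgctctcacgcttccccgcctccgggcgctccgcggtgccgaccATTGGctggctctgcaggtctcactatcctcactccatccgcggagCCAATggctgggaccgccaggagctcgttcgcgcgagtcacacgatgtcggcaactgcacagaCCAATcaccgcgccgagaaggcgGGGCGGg
SCD (chr10:100346983-100347123, plus strand): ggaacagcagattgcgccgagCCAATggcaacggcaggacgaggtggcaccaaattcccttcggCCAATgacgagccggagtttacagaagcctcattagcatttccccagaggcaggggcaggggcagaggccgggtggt
INSIG1 (chr7:155297628-155297775, plus strand): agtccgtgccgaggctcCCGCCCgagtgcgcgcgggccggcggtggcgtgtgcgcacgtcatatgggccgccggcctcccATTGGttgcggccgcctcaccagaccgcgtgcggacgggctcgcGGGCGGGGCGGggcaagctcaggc
INSIG2 (chr2:118088221-118088451, plus strand): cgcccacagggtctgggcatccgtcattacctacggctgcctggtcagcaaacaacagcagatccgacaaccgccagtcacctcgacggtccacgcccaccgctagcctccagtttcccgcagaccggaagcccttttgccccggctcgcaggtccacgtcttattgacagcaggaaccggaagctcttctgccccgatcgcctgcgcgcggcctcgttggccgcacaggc
SREBF2 (chr22:41832855-41833078, plus strand): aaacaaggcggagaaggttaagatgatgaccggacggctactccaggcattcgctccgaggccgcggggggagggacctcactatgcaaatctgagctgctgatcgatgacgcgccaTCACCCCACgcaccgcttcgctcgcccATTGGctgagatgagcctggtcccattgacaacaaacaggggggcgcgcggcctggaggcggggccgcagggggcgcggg
The MSMO1 stretch held 3 CCAAT and 2 GGGCGG matches, that of SCD 2 CCAAT matches, and that of INSIG1 1 CCAAT and 3 GGGCGG matches. The SREBF2 stretch held 1 TCACNCCAC and 1 CCAAT match, and none of the 4 motifs was found in the stretch of INSIG2. The full windows, which run beyond these stretches, held 1 GGGCGG for INSIG2, 2 for SCD, 3 for SREBF2 and 6 for INSIG1. They also held 1 CACGTG for INSIG1 and 4 CCAAT for MSMO1.

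Reads from the 32 genes made up 11255 and 11304 CPM in the MOLM-13 DMSO libraries, 2818 and 2872 CPM at 24 h of BRM014, and 2395 and 2294 CPM at 72 h. In MV-4-11 they made up 6881 and 6890.1 CPM with DMSO, 3238 and 3262 CPM at 24 h, and 7174 and 7429.7 CPM at 72 h. In THP-1 they made up 3781 and 3818 CPM with DMSO, 2816 and 2861 CPM at 24 h, and 1818 and 1825 CPM at 72 h. Thus the 3 lines began from different levels and came to lie close together at 24 h, and at 72 h MV-4-11 lay above its DMSO libraries while the others lay below their 24 h libraries. The libraries of different groups of a line did not overlap. In MV-4-11 the roles did not move alike from DMSO to 72 h. The mean sum of desaturases and elongases went from 2090 to 3021 CPM. Of these, SCD went from 1179.6 and 1205 CPM to 1839 and 1922 CPM. Regulators went from 1214 to 1618 CPM and mevalonate enzymes from 635 to 691 CPM. Enzymes from squalene onwards went from 1366 to 1071 CPM, and those of the fatty acid chain from 1581 to 901 CPM. In such bulk samples, fewer cells of a type and less RNA per cell cannot be told apart.

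**Figure D1:**
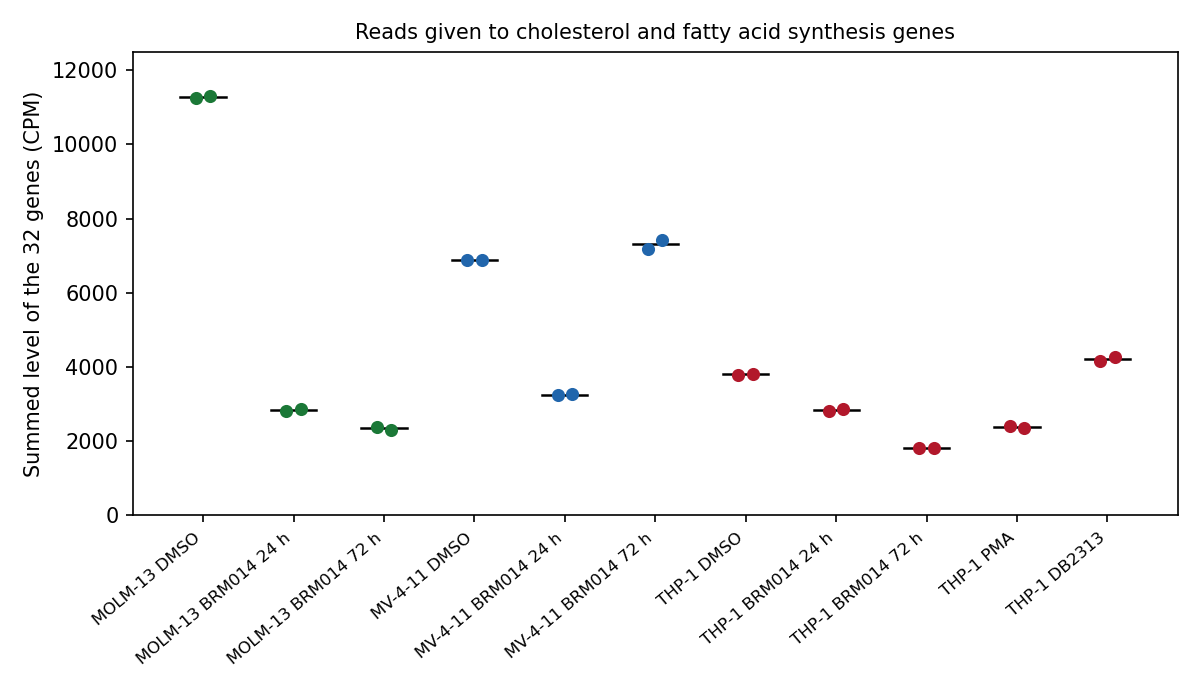
Summed level of the 32 genes in CPM (vertical axis, from 0) in each of the 11 groups (horizontal axis). Points are libraries, bars are means of 2, and colours mark the lines; MOLM-13 goes from 11280 to 2345 CPM at 72 h, and MV-4-11 from 6886 to 3250 CPM at 24 h and 7302 CPM at 72 h.

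Log2 fold changes below are from edgeR's quasi-likelihood test, given ± standard error with 2 libraries in each group, and a gene was called when its p, adjusted by Benjamini-Hochberg over all 16794 genes, was under 0.05. In MOLM-13 at 24 h, 29 of the 32 genes were called lower and 1 higher, where 23.5% of all genes were called lower and 22.7% higher (19% and 27.7% with scaling by library size alone). At 72 h 28 were called lower and 2 higher (29.4% and 30.3% of all genes). The genes called higher were SCAP at 24 h and SCAP and INSIG2 at 72 h. In MV-4-11 at 24 h 26 were called lower (22.4%) and 0 higher (23.6%), and 0 were higher by DESeq2 or at an unadjusted p under 0.05. At 72 h in MV-4-11 only 10 were called lower (26.1%) and 7 higher (28.4%), close to the shares over all genes. In THP-1 15 were called lower (24.1%) and 3 higher (25.9%) at 24 h, and 24 lower (28%) and 2 higher (30.9%) at 72 h. The genes called higher there were TM7SF2, INSIG2 and SREBF1 at 24 h and TM7SF2 and INSIG2 at 72 h. The median log2 fold change of the 32 genes was -1.79 and -2.07 in MOLM-13 at 24 h and 72 h, -0.90 and -0.02 in MV-4-11, with THP-1 at -0.19 and -1.08 (-0.23 and -1.08 without ELOVL6, which had almost no reads there), where the median of all genes was between 0 and 0.06. With scaling by library size alone the median of all genes moved to 0.16 in MOLM-13 and 0.14 in THP-1 at 72 h, and that of the 32 genes to -1.88 and -0.99.

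**Figure D2:**
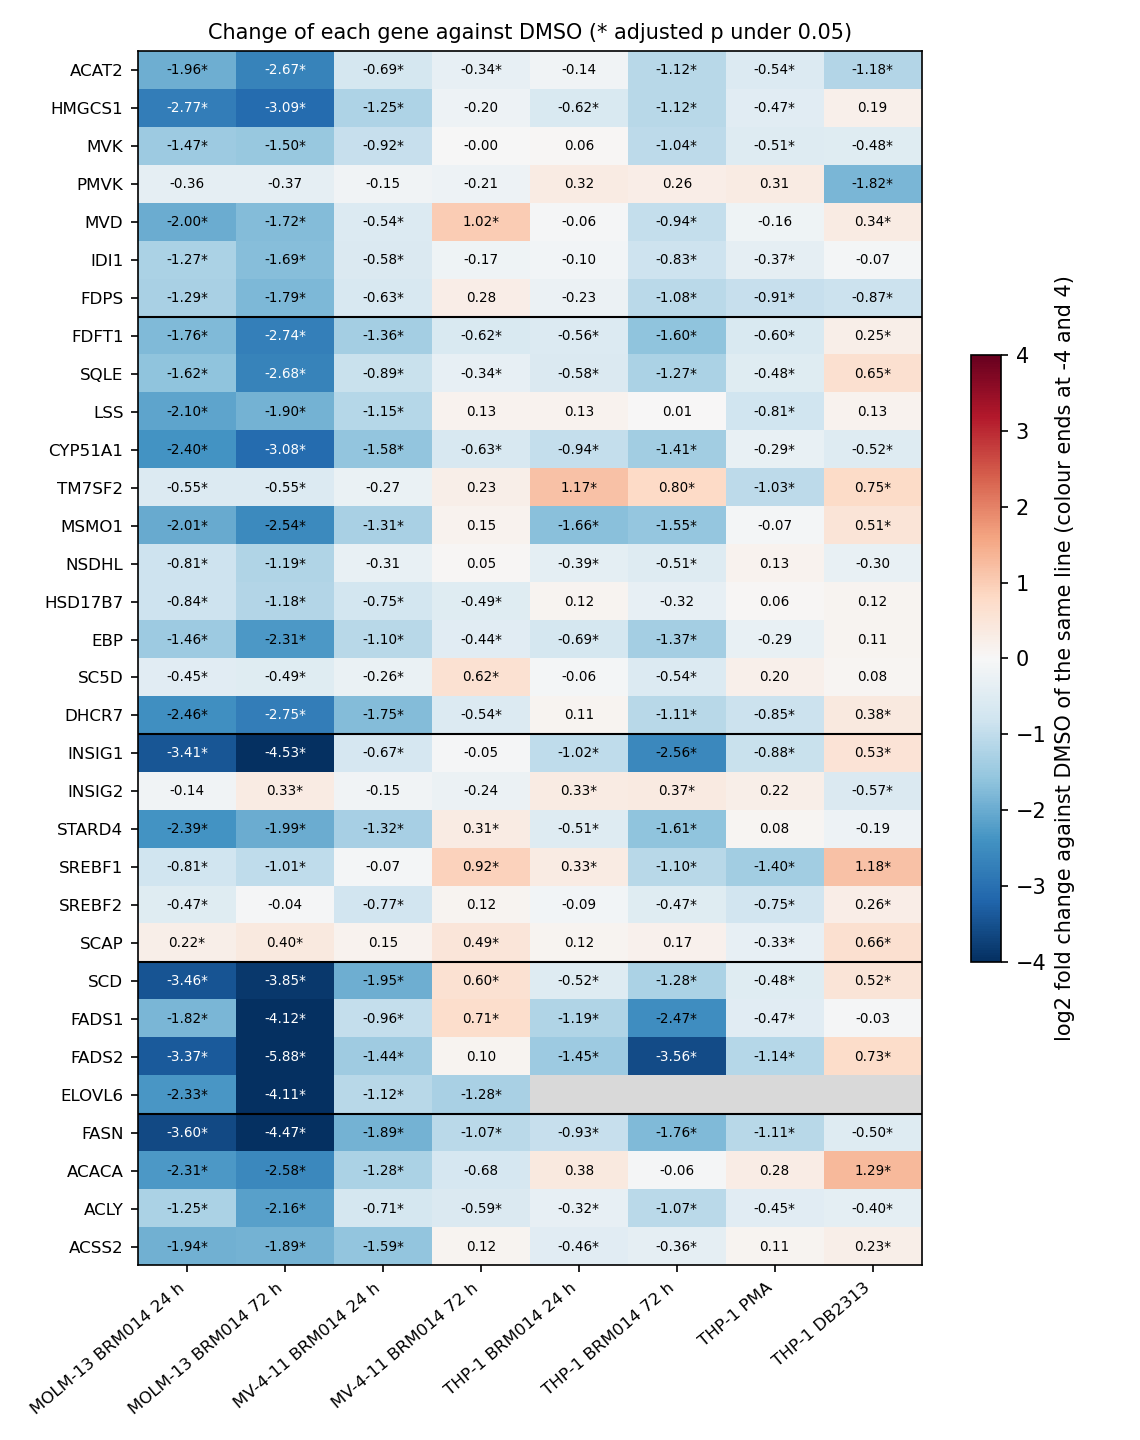
Log2 fold change against the DMSO group of the same line for the 32 genes (rows, ordered by role) in 8 comparisons (columns); blue is lower and red higher, colours stop at the ends of the bar, and stars mark an adjusted p under 0.05. The 2 MOLM-13 columns are blue for nearly all genes, the MV-4-11 column at 72 h is mixed, and ELOVL6 is left blank in THP-1, where at most 5 reads were counted in a library.

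Genes called lower in all 3 lines numbered 14 at 24 h (9.49% of all genes tested): HMGCS1, FDFT1, SQLE, CYP51A1, MSMO1, EBP, INSIG1, STARD4, SCD, FADS1, FADS2, FASN, ACLY and ACSS2. At 72 h they numbered 8 (14.5%): ACAT2, FDFT1, SQLE, CYP51A1, EBP, DHCR7, FASN and ACLY. By edgeR, 0 were called higher in all 3 lines at either time, where 9.12% and 13.5% of all genes were. DESeq2 also called 0 at both times, and at an unadjusted p under 0.05 there was 1 at 72 h, SCAP, and 0 at 24 h. SCAP in THP-1 at 72 h was at 0.17 ± 0.08 (adjusted p = 0.074), and it was called without either PMA library (0.17, adjusted p = 0.0322 and 0.0319) and with scaling by library size alone (0.25). These sets span the pathway from ACLY, which makes cytosolic acetyl-CoA, to DHCR7, the last reductase of cholesterol synthesis.

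In the mevalonate pathway the largest change was that of HMGCS1 (chromosome 5, 43289395 to 43313512, minus strand in GENCODE v29 on GRCh38), which makes hydroxymethylglutaryl-CoA. Its level was 443 and 416 CPM in MOLM-13 DMSO, 72.5 and 64.7 CPM at 24 h, and 57.9 and 57.5 CPM at 72 h. In MV-4-11 it was 209 and 202 CPM with DMSO, 93.3 and 88.4 CPM at 24 h, and 188 and 183 CPM at 72 h. The THP-1 libraries gave 125 and 119 CPM, then 84.0 and 80.5 CPM, then 61.6 and 57.1 CPM. No treated library reached its line's DMSO libraries, and only in MV-4-11 was the 72 h pair nearer to DMSO than the 24 h pair. The log2 fold change was -2.77 ± 0.10 and -3.09 ± 0.10 in MOLM-13 (adjusted p = 7.6e-15 and 4.3e-16), -1.25 ± 0.09 and -0.20 ± 0.09 in MV-4-11 (6.4e-10 and 0.0603), and -0.62 ± 0.09 and -1.12 ± 0.09 in THP-1 (1.1e-05 and 2.5e-09). The MV-4-11 value at 72 h was called by DESeq2 (-0.21, adjusted p = 0.0412) and with that line's libraries alone (-0.24, adjusted p = 0.000924).

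Of the 7 mevalonate genes, 6 fell in MOLM-13 at both times (23.5% and 29.4% of all genes were called lower). Likewise 6 fell in MV-4-11 at 24 h (22.4%) and 6 in THP-1 at 72 h (28%). PMVK was the one not called each time. At 24 h in THP-1 only HMGCS1 fell, where 24.1% of all genes did. At 72 h in MV-4-11 ACAT2, the thiolase that begins the pathway, fell (-0.34 ± 0.09), and MVD, the decarboxylase that makes isopentenyl diphosphate, rose (1.02 ± 0.12). MVD stood at 64.8 and 64.2 CPM in MV-4-11 DMSO, 46.2 and 47.2 CPM at 24 h, and 133 and 139.6 CPM at 72 h. It thus passed below and then above its DMSO level, while in MOLM-13 it went from 126 and 139 CPM to 35.5 and 37.0 CPM and to 46.8 and 44.9 CPM. Mevalonate kinase, MVK, was at -1.47 ± 0.11 and -1.50 ± 0.11 in MOLM-13, falling at both times, and in MV-4-11 at 72 h it was at 39.2 and 36.1 CPM against 35.0 and 37.3 CPM with DMSO. Of the exon length of ACAT2, 52.3% is overlapped by genes on the other strand, SOD2 and TCP1 among them. Such overlap is 18.6% for FDPS (RUSC1-AS1), 14.8% for IDI1 (IDI2-AS1) and 4.72% for MVK (MMAB). Whether strand was used in counting is not given, which leaves the values of these genes uncertain. FDPS also has 8 named pseudogene copies, which adds to that uncertainty.

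PMVK, phosphomevalonate kinase (chromosome 1, 154924734 to 154936991, minus strand), was singled out after its values were seen. It stood at 34.1 and 47.9 CPM in MOLM-13 DMSO, 33.4 and 36.2 CPM at 24 h and 36.3 and 36.0 CPM at 72 h, so that, the library at 33.4 CPM aside, the treated libraries lay within the range of the DMSO pair. Its log2 fold changes were -0.36 ± 0.19 and -0.37 ± 0.18 in MOLM-13 (adjusted p = 0.122 and 0.0876). Without DMSO replicate 1 they were -0.60 and -0.62 (adjusted p = 0.0239 and 0.0143), and without DMSO replicate 2 they were -0.08 and -0.09 (0.854 and 0.773). They were also called in MOLM-13 when the PMA and DB2313 libraries were left out (-0.37 and -0.36, adjusted p = 0.0179 and 0.0132). In MV-4-11 the values were -0.15 ± 0.18 and -0.21 ± 0.18, and in THP-1 0.32 ± 0.18 and 0.26 ± 0.18. The THP-1 value at 24 h was called without the PMA and DB2313 libraries (0.29, adjusted p = 0.045), and the MV-4-11 value at 72 h with that line's libraries alone (-0.24, adjusted p = 0.0158). The estimates were thus small next to those of the neighbouring enzymes MVK and MVD in MOLM-13.

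Among the enzymes from squalene onwards the largest change was that of CYP51A1 (chromosome 7, 92112151 to 92134803, minus strand), the lanosterol demethylase, which has 3 pseudogene copies. Its level was 93.1 and 94.5 CPM in MOLM-13 DMSO, 19.5 and 19.2 CPM at 24 h, and 13.0 and 12.3 CPM at 72 h. In MV-4-11 it was 140.0 and 143 CPM, then 49.2 and 50.3 CPM, then 96.1 and 94.8 CPM. In THP-1 it was 82.2 and 86.9 CPM, then 46.7 and 44.2 CPM, then 33.7 and 34.1 CPM. Both treated pairs lay below DMSO in every line, and again only the MV-4-11 pair rose between the times. The log2 fold change was -2.40 ± 0.08 and -3.08 ± 0.08 in MOLM-13, -1.58 ± 0.07 and -0.63 ± 0.07 in MV-4-11, with THP-1 at -0.94 ± 0.07 and -1.41 ± 0.07 (largest adjusted p of the 6, 1.5e-07).

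All 11 genes of this role fell in MOLM-13 at both times (23.5% and 29.4% of all genes were called lower). At 24 h 9 fell in MV-4-11 (22.4%) and 6 in THP-1 (24.1%), and at 72 h 6 (26.1%) and 8 (28%). Of this role, SC5D rose in MV-4-11 at 72 h and TM7SF2 in THP-1 at both times. FDFT1, squalene synthase, fell in all 6 comparisons, from -2.74 ± 0.08 in MOLM-13 at 72 h to -0.56 ± 0.07 in THP-1 at 24 h. SQLE, the squalene monooxygenase that commits squalene to sterols, also fell in all 6, from -2.68 ± 0.07 to -0.34 ± 0.07, the latter in MV-4-11 at 72 h. EBP, the sterol isomerase, did so from -2.31 ± 0.12 to -0.44 ± 0.12. DHCR7 fell in 5 of the 6, and in THP-1 at 24 h it was at 0.11 ± 0.08 (adjusted p = 0.29), with 45.6 and 45.7 CPM against 41.2 and 41.0 CPM in DMSO. LSS, lanosterol synthase, fell in MOLM-13 (-2.10 ± 0.17 and -1.90 ± 0.16) and in MV-4-11 at 24 h (-1.15 ± 0.16), and in THP-1 its libraries were at 14.8 and 18.4 CPM, then 14.7 and 16.7 CPM, against 15.2 and 14.2 CPM with DMSO.

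MSMO1, the methylsterol monooxygenase whose promoter is printed above, had a different course in THP-1. It stood at 42.6 and 40.5 CPM with DMSO, 12.3 and 14.7 CPM at 24 h, and 15.4 and 14.7 CPM at 72 h. Its decrease was as large at 24 h as at 72 h (-1.66 ± 0.11 and -1.55 ± 0.12). In MV-4-11 it went from 68.1 and 71.4 CPM to 32.8 and 26.6 CPM and on to 81.2 and 79.5 CPM, so that the 72 h pair lay above DMSO without passing the test (0.15 ± 0.10, adjusted p = 0.25). TM7SF2, a sterol reductase, was the sterol enzyme that rose in THP-1. It was at 13.5 and 10.5 CPM in THP-1 DMSO, 29.6 and 25.9 CPM at 24 h and 23.2 and 20.7 CPM at 72 h, or 1.17 ± 0.16 and 0.80 ± 0.16. In MOLM-13 it fell (-0.55 ± 0.15 at both times), and without MOLM-13 DMSO replicate 2 these became -0.35 and -0.36, neither called (adjusted p = 0.124 and 0.0952).

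**Figure D3:**
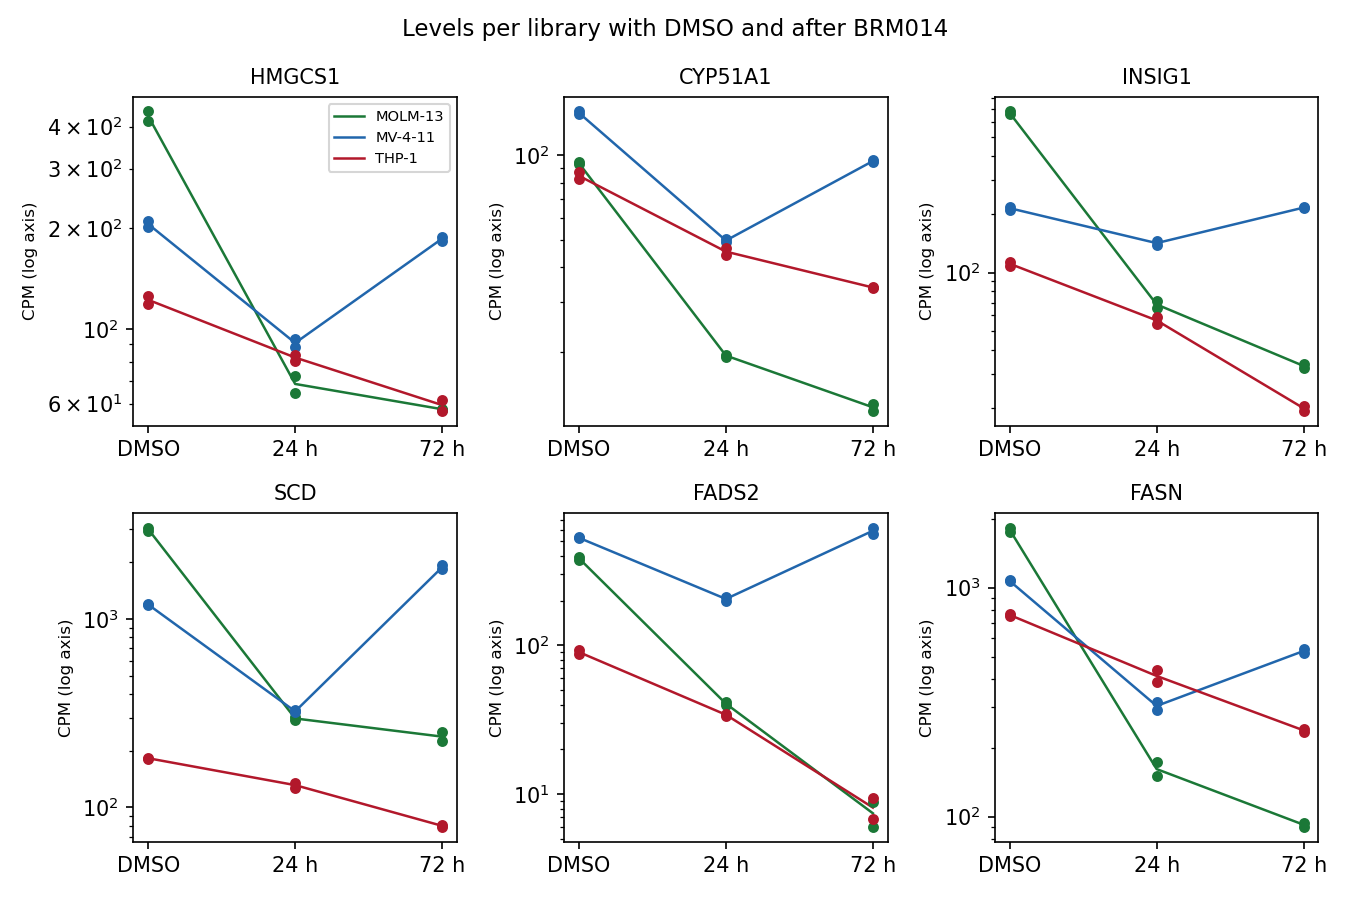
Level in CPM (vertical axes, log scale) of HMGCS1, CYP51A1, INSIG1, SCD, FADS2 and FASN with DMSO and after 24 h and 72 h of BRM014 (horizontal axes). Points are libraries, lines join the means of 2, and colours mark the lines; in each panel the MV-4-11 level is higher at 72 h than at 24 h and the MOLM-13 and THP-1 levels are lower.

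Of the 6 regulators, INSIG1 changed most (chromosome 7, 155297776 to 155310235, plus strand). This retention protein stood at 654 and 678 CPM in MOLM-13 DMSO, 66.0 and 70.8 CPM at 24 h, and 32.1 and 33.8 CPM at 72 h. In MV-4-11 it stood at 211 and 219 CPM, then 145 and 138 CPM, then 216 and 217 CPM. In THP-1 it stood at 109 and 113 CPM, then 54.2 and 59.0 CPM, then 19.3 and 20.5 CPM. The MV-4-11 libraries at 72 h lay between the DMSO ones, and in the other lines every treated library lay below every DMSO library. The log2 fold change was -3.41 ± 0.07 and -4.53 ± 0.08 in MOLM-13 (adjusted p = 2.7e-17 and 3.5e-19), -0.67 ± 0.07 and -0.05 ± 0.07 in MV-4-11 (8.5e-08 and 0.59), and -1.02 ± 0.07 and -2.56 ± 0.08 in THP-1 (3.7e-10 and 9.4e-16).

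Its paralog INSIG2 (chromosome 2, 118088452 to 118110997, plus strand), named after its values were seen, was at a lower level. In MOLM-13 it was at 19.1 and 20.3 CPM with DMSO, 20.7 and 18.2 CPM at 24 h, and 27.8 and 28.7 CPM at 72 h. In THP-1 it was at 11.7 and 12.1 CPM, then 16.3 and 14.6 CPM, then 16.5 and 16.1 CPM. The 24 h libraries of MOLM-13 overlapped DMSO, and the other treated libraries of both lines lay above it. In MV-4-11 it was at 38.8 and 38.2 CPM, then 37.5 and 35.7 CPM, then 31.4 and 36.2 CPM, with both treated pairs below DMSO and neither called (-0.15 ± 0.11 and -0.24 ± 0.11, adjusted p = 0.327 and 0.0769). The 72 h value was called without the PMA and DB2313 libraries (-0.28, adjusted p = 0.0146). The rises at 72 h in MOLM-13 (0.33 ± 0.12, adjusted p = 0.021), at 24 h in THP-1 (0.33 ± 0.13, 0.037) and at 72 h in THP-1 (0.37 ± 0.13, 0.018) were not called without a filter on low counts, where adjusted p was 0.0962, 0.126 and 0.0618. The rise at 24 h in THP-1 was not called by DESeq2 either (0.31, adjusted p = 0.0684). Without MOLM-13 DMSO replicate 1 or either 72 h library the MOLM-13 value was 0.27 to 0.35 (adjusted p = 0.0558 to 0.144). Without either THP-1 DMSO library the THP-1 values were 0.30 and 0.36 at 24 h (adjusted p = 0.143 and 0.0914) and 0.34 and 0.40 at 72 h (0.0879 and 0.0539). They were likewise not called without replicate 1 of the treated pair (0.24 and 0.34, adjusted p = 0.228 and 0.0797).

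SREBF1 (chromosome 17, 17810399 to 17837002, minus strand) went in MOLM-13 from 518 and 597 CPM with DMSO to 331 and 366 CPM at 24 h and 332 and 302 CPM at 72 h. In MV-4-11 it went from 271 and 267 CPM to 259 and 279 CPM and to 518 and 540.4 CPM. In THP-1 it went from 73.0 and 80.8 CPM to 95.8 and 104 CPM and to 38.1 and 37.8 CPM. It thus fell in MOLM-13 (-0.81 ± 0.09 and -1.01 ± 0.09), rose by 72 h in MV-4-11 (0.92 ± 0.09), and rose and then fell in THP-1 (0.33 ± 0.09, then -1.10 ± 0.10). The early THP-1 rise was not called without THP-1 DMSO replicate 1 (0.25, adjusted p = 0.0838) or without THP-1 BRM014 24 h replicate 2 (0.28, adjusted p = 0.0614).

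SREBF2 (chromosome 22, 41833079 to 41907308, plus strand) stood at 430.3 and 450.4 CPM in MOLM-13 DMSO, 341 and 353 CPM at 24 h, and 503 and 475 CPM at 72 h. It fell at 24 h (-0.47 ± 0.06). At 72 h, when 17 of the 18 sterol pathway enzymes were called lower (29.4% of all genes), it was at -0.04 ± 0.06 (adjusted p = 0.62). With scaling by library size alone the log2 fold change at 72 h was 0.15, of the other sign. In CPM both 72 h libraries lay above both DMSO libraries. In MV-4-11 it fell at 24 h (-0.77 ± 0.06) and was at 0.12 ± 0.06 at 72 h (called with scaling by library size alone, at 0.18, adjusted p = 0.0268), and in THP-1 it was at -0.09 ± 0.06 (-0.12, called, without the PMA and DB2313 libraries) and then fell (-0.47 ± 0.06). SCAP, the escort of the SREBPs, rose in MOLM-13 at 24 h and 72 h (0.22 ± 0.08 and 0.40 ± 0.08) and in MV-4-11 at 72 h (0.49 ± 0.08). Its MOLM-13 rise at 24 h was not called without a filter on low counts (0.18, adjusted p = 0.141), without BRM014 24 h replicate 2 (0.15, 0.257) or without DMSO replicate 1 (0.19, 0.147), and was 0.35 with scaling by library size alone. STARD4, a sterol transfer protein, fell at 24 h in every line, most in MOLM-13 (-2.39 ± 0.13). At 72 h it was at 171 and 170.1 CPM in MV-4-11 against 134 and 130.2 CPM with DMSO (0.31 ± 0.11), a rise that was not called without any one of the 4 libraries compared (0.30 to 0.33, adjusted p = 0.0785 to 0.0984).

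The desaturases showed the widest changes. FADS2, the desaturase that begins the synthesis of long polyunsaturated fatty acids (chromosome 11, 61792980 to 61867354, plus strand), stood at 375 and 394 CPM in MOLM-13 DMSO, 41.4 and 39.6 CPM at 24 h, and 8.85 and 6.01 CPM at 72 h. In MV-4-11 it stood at 533 and 523 CPM, then 211 and 198 CPM, then 560.4 and 617 CPM. In THP-1 it stood at 87.0 and 93.0 CPM, then 33.6 and 34.7 CPM, then 6.85 and 9.38 CPM. In MOLM-13 and THP-1 each later pair lay below the earlier one, and in MV-4-11 the 72 h pair lay above DMSO. The log2 fold change was -3.37 ± 0.11 and -5.88 ± 0.13 in MOLM-13 (adjusted p = 5.1e-15 and 5.1e-18), -1.44 ± 0.10 and 0.10 ± 0.10 in MV-4-11 (3.5e-10 and 0.43), and -1.45 ± 0.11 and -3.56 ± 0.13 in THP-1 (9.8e-10 and 1.0e-14). Of the exon length of FADS2, 4.89% is overlapped by FADS1 on the other strand and FEN1 on the same strand, so these counts are not fully separate.

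FADS1 followed, at -1.82 ± 0.11 and -4.12 ± 0.13 in MOLM-13, -0.96 ± 0.09 and 0.71 ± 0.09 in MV-4-11, with THP-1 at -1.19 ± 0.09 and -2.47 ± 0.10, each called. SCD (chromosome 10, 100347124 to 100364834, plus strand), the stearoyl-CoA desaturase that makes oleate, was the most abundant of the 32 per kilobase of exon in MOLM-13 and MV-4-11 DMSO, at 558.5 ± 14 and 222 ± 3.38 CPM per kb (SD, n = 2). Its level was 3048 and 2941 CPM in MOLM-13 DMSO, 291 and 302 CPM at 24 h, and 250.2 and 225 CPM at 72 h. In MV-4-11 it was 1179.6 and 1205 CPM, then 327 and 319.5 CPM, then 1839 and 1922 CPM. In THP-1 it was 182 and 183 CPM, then 136 and 127 CPM, then 81.0 and 78.8 CPM. SCD thus fell in all lines at 24 h (-3.46 ± 0.08, -1.95 ± 0.07 and -0.52 ± 0.07), and at 72 h it stayed low in MOLM-13 (-3.85 ± 0.08) and THP-1 (-1.28 ± 0.07) and rose above DMSO in MV-4-11 (0.60 ± 0.07, adjusted p = 3.2e-07). ELOVL6, which lengthens palmitate, fell in MOLM-13 (-2.33 ± 0.18 and -4.11 ± 0.20) and in MV-4-11 at both times (-1.12 ± 0.17 and -1.28 ± 0.17).

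ELOVL6 was near absent in THP-1. It had 0 reads in both DMSO libraries and both 72 h libraries, which allows up to 0.148 to 0.188 CPM in single libraries for counting error only. It had 1 and 0 reads at 24 h, 1 and 2 reads with PMA, and 0 and 5 reads with DB2313, so no fold is given for it in THP-1.

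FASN (chromosome 17, 82078333 to 82098332, minus strand), the synthase that builds palmitate, was the gene of its role with the largest change. Its level was 1754 and 1828 CPM in MOLM-13 DMSO, 149.7 and 173 CPM at 24 h, and 94.1 and 90.1 CPM at 72 h. In MV-4-11 it was 1076 and 1064 CPM, then 293 and 316 CPM, then 518 and 540.4 CPM. In THP-1 it was 755 and 766 CPM, then 388 and 435 CPM, then 235 and 241 CPM. All treated libraries lay well below DMSO, MV-4-11 at 72 h included. The log2 fold change was -3.60 ± 0.08 and -4.47 ± 0.08 in MOLM-13, -1.89 ± 0.08 and -1.07 ± 0.07 in MV-4-11, with THP-1 at -0.93 ± 0.07 and -1.76 ± 0.08 (largest adjusted p of the 6, 2.0e-09).

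ACLY, ATP citrate lyase, fell in all 6 comparisons, from -2.16 ± 0.06 in MOLM-13 at 72 h to -0.32 ± 0.06 in THP-1 at 24 h. ACSS2, which makes acetyl-CoA from acetate, fell at 24 h in each line (-1.94 ± 0.10, -1.59 ± 0.10 and -0.46 ± 0.10). At 72 h it was back at 52.1 and 51.9 CPM in MV-4-11 against 44.8 and 47.1 CPM with DMSO (0.12 ± 0.10, adjusted p = 0.32), and still at 54.9 and 53.1 CPM against 175 and 175 CPM in MOLM-13. ACACA, the acetyl-CoA carboxylase that makes malonyl-CoA, was counted at 27.4 and 11.96 CPM in MOLM-13 DMSO and at 2.33 to 27.4 CPM over all libraries, with a standard error of 0.44 to 0.52 in each comparison. It fell in MOLM-13 (-2.31 ± 0.48 and -2.58 ± 0.49) and at 24 h in MV-4-11 (-1.28 ± 0.45), the latter not by DESeq2 (adjusted p = 0.053) nor without MV-4-11 DMSO replicate 1 or either 24 h library (-0.92 to -1.44, adjusted p = 0.0663 to 0.208).

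The effect of BRM014 differed between lines, by an F test of both differences, in 28 of the 32 genes at 24 h and 31 at 72 h, where 43.5% and 52.9% of all genes did. The exceptions at 24 h were PMVK, SCAP, NSDHL and SC5D, and at 72 h PMVK (adjusted p = 0.102). The share of all genes called in opposite directions in 2 lines was not computed, so such genes are named without a count. At 24 h they were TM7SF2 and SREBF1. At 72 h they were MVD, TM7SF2, SC5D, STARD4, SREBF1, SCD and FADS1. Of these, MVD, SC5D, STARD4, SREBF1, SCD and FADS1 were called higher in MV-4-11 and lower in both other lines. SC5D, the lathosterol desaturase, was at 0.62 ± 0.10 in MV-4-11 and at -0.49 ± 0.10 and -0.54 ± 0.10 in MOLM-13 and THP-1. ELOVL6 entered these tests with the few THP-1 reads given above.

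Levels with DMSO also differed between lines in 30 of the 32 genes, where 78.9% of all genes did. The mean was highest in MOLM-13 for 22 genes, in MV-4-11 for 8 (CYP51A1, INSIG2, STARD4, SREBF2, SCAP, FADS1, FADS2 and ELOVL6) and in THP-1 for 2 (PMVK and SC5D). For 6 of the 32 the libraries of the highest line overlapped those of the next. In THP-1 the highest levels per kilobase of exon were those of ACLY (95.4 ± 1.55 CPM per kb), FASN (81.2 ± 0.82) and FDFT1 (65.4 ± 1.56), where in MOLM-13 SCD was followed by FDFT1 (212 ± 3.51) and FASN (191 ± 5.53). Over all 11 groups, 19 genes had their highest mean in MOLM-13 DMSO and 6 in MV-4-11 at 72 h of BRM014. Such orders and overlaps were not counted over all genes, so whether they are particular to these genes was not tested.

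The 72 h libraries were also compared with the 24 h libraries directly, which does not use the DMSO groups as a reference. In MV-4-11 26 of the 32 genes were higher at 72 h and 0 lower, where 18.6% of all genes were called higher and 16.9% lower; DESeq2 called 27 and 0, and none was lower at an unadjusted p under 0.05. In THP-1 22 were lower and 0 higher (16.5% and 16.2%; 0 higher by DESeq2 and at an unadjusted p under 0.05 too). In MOLM-13 18 were lower and 3, INSIG2, STARD4 and SREBF2, were higher (22.7% and 20.8%). The median log2 difference of the 32 genes was 0.85 in MV-4-11, -0.71 in THP-1 (-0.69 without ELOVL6) and -0.36 in MOLM-13.

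The rise in MV-4-11 was largest for SCD (2.55 ± 0.07), ACSS2 (1.71 ± 0.10), FADS1 (1.67 ± 0.09) and STARD4 (1.63 ± 0.12). Not called there were PMVK, HSD17B7, INSIG2, ELOVL6, ACACA and ACLY, of which ACLY was at 0.11 ± 0.06 (adjusted p = 0.15; 0.14 and 0.0206 by DESeq2). The largest late decreases were those of FADS2 (-2.51 ± 0.13) and FADS1 (-2.30 ± 0.15) in MOLM-13, and of FADS2 (-2.12 ± 0.13) and INSIG1 (-1.55 ± 0.08) in THP-1. The MOLM-13 rise of INSIG2 was not called without BRM014 24 h replicate 2 (0.37, adjusted p = 0.0555), nor that of STARD4 without either 24 h library or without 72 h replicate 1 (0.37 to 0.42, adjusted p = 0.0513 to 0.0889). SREBF1 rose by 0.99 ± 0.09 in MV-4-11 and was at -1.43 ± 0.10 in THP-1 and -0.20 ± 0.09 in MOLM-13, the last not called (adjusted p = 0.073) except in 5 of the alternatives, such as that without the PMA and DB2313 libraries (-0.19, adjusted p = 0.0343).

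**Figure D4:**
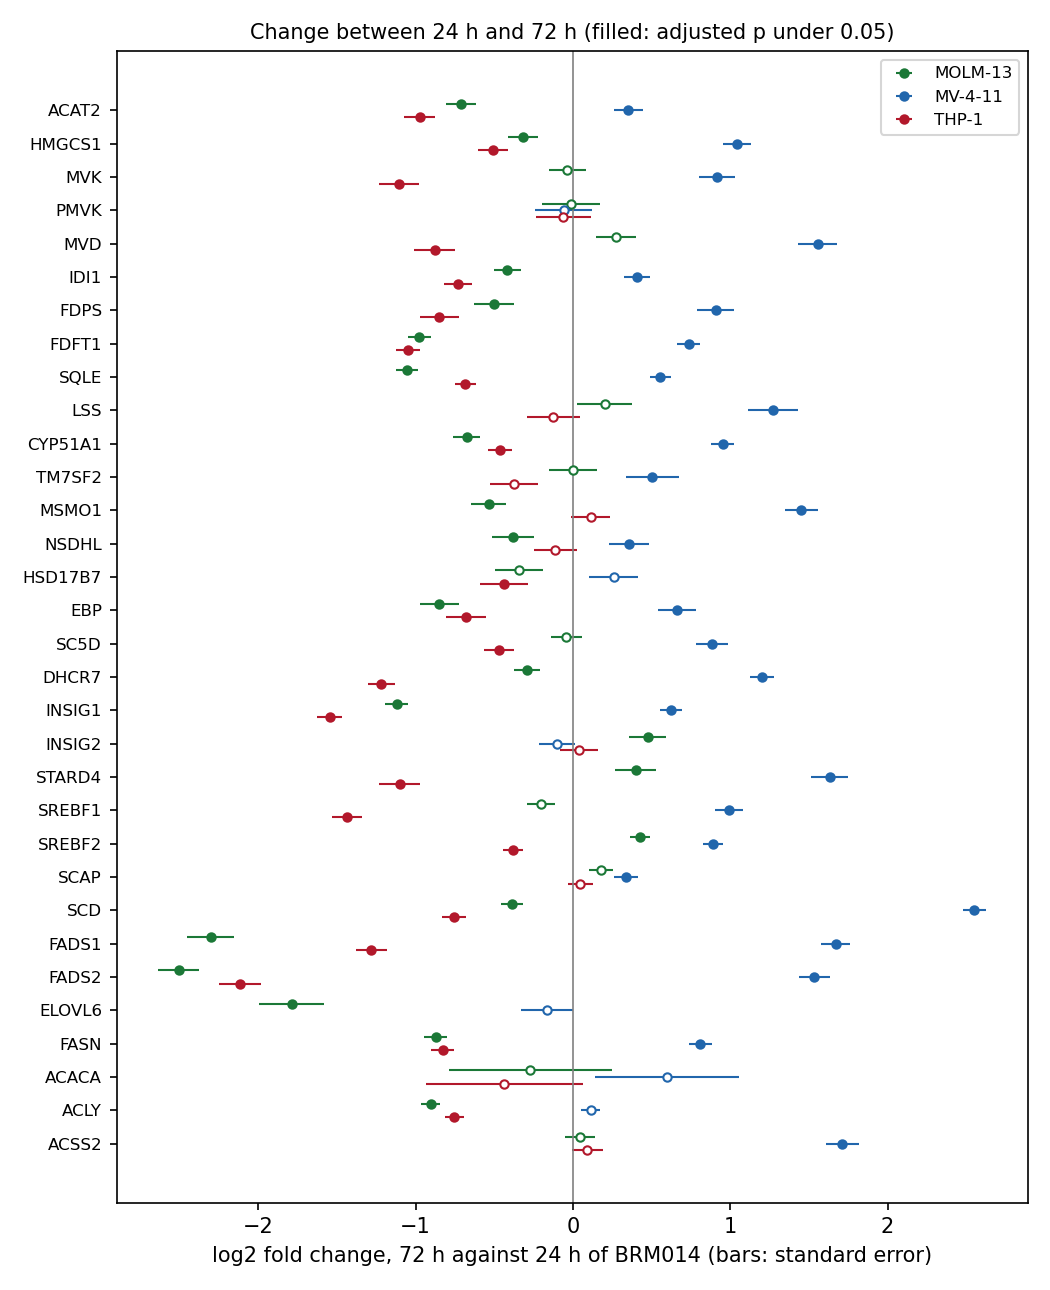
Log2 fold change between 24 h and 72 h of BRM014 (horizontal axis) for each gene (rows) in MOLM-13, MV-4-11 and THP-1 (colours); bars are standard errors and filled points have an adjusted p under 0.05. The filled MV-4-11 points all lie above 0, and the filled THP-1 points all lie below 0.

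In THP-1 the other agents were compared with the same DMSO libraries as BRM014, so the 3 sets of values share their controls and are given side by side. With PMA 20 of the 32 genes were called lower and 0 higher, where 17.1% and 18.9% of all genes were called lower and higher (22.6% and 15.7% with scaling by library size alone). DESeq2 called 0 higher, and 1, SC5D, was higher at an unadjusted p under 0.05 (0.20 ± 0.09, and 0.02 without PMA replicate 1 or 0.36 without replicate 2). The count of genes called higher was 3 without PMA replicate 1 and 2 without PMA replicate 2, and the count lower was 20 and 22. With DB2313 15 were called higher and 8 lower, where 35.9% and 29.5% of all genes were, and without ELOVL6 the count higher was 14. Without ELOVL6 the medians were -0.47 for PMA, 0.13 for DB2313, where all genes had a median of 0.14, and -1.08 for BRM014 at 72 h. The summed level of the genes was 2388 ± 36.3 CPM with PMA, 4225 ± 81 CPM with DB2313 and 1822 ± 4.95 CPM at 72 h of BRM014, against 3799 ± 26 CPM with DMSO (SD, n = 2).

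With PMA the largest decrease was that of SREBF1, from 73.0 and 80.8 CPM to 25.4 and 29.5 CPM (-1.40 ± 0.10, adjusted p = 6.4e-10), followed by FADS2 (-1.14 ± 0.11), FASN (-1.11 ± 0.07) and TM7SF2 (-1.03 ± 0.18). SREBF2 also fell (-0.75 ± 0.06). MSMO1 was at 41.5 and 33.0 CPM with PMA against 42.6 and 40.5 CPM with DMSO and was not called. The summed myeloid markers were highest with PMA, at 11510 to 11610 CPM against 3535 to 3684 CPM with DMSO. The sum thus rose where the genes called with PMA fell, and LYZ (1845 to 8366 CPM) made up most of it. The means of MPO (11.9 to 3.34 CPM) and CEBPA (527 to 459 CPM) were lower with PMA, and those of the other markers higher. The part of these markers in the values above was not tested.

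With DB2313 SREBF1 went to 179 and 188 CPM (1.18 ± 0.09), INSIG1 to 169 and 169 CPM (0.53 ± 0.07), FADS2 to 158 and 158 CPM (0.73 ± 0.10) and SQLE to 387 and 404 CPM (0.65 ± 0.07). These libraries all lay above the DMSO ones. PMVK went the other way, from 43.2 and 46.7 CPM to 15.1 and 11.8 CPM (-1.82 ± 0.20, adjusted p = 8.9e-08), as did ACAT2 (-1.18 ± 0.10) and FDPS (-0.87 ± 0.12). Of the 7 mevalonate genes 4 fell and only MVD rose (0.34 ± 0.13), where 29.5% and 35.9% of all genes did. The rise of MVD was not called without THP-1 DMSO replicate 1 (0.25, adjusted p = 0.177) or DB2313 replicate 1 (0.24, adjusted p = 0.187). Of the desaturases, SCD rose to 273 and 278 CPM (0.52 ± 0.07), and FADS1 was at 149.7 and 147 CPM against 145 and 144 CPM with DMSO.

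Set directly against DB2313 at the same 72 h, BRM014 gave lower values for 25 of the 32 genes and higher ones for 2, PMVK and INSIG2, where 30.9% and 30.4% of all genes were called; without ELOVL6 it was lower for 24. The largest differences were those of FADS2 (-4.30 ± 0.13), INSIG1 (-3.10 ± 0.08), FADS1 (-2.44 ± 0.10) and SREBF1 (-2.28 ± 0.10), and PMVK was higher by 2.08 ± 0.20. ACAT2, at 25.04 and 24.6 CPM with BRM014 and 25.9 and 21.3 CPM with DB2313, was not called. BRM014 and DB2313 were used at different doses and have different targets.

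**Figure D5:**
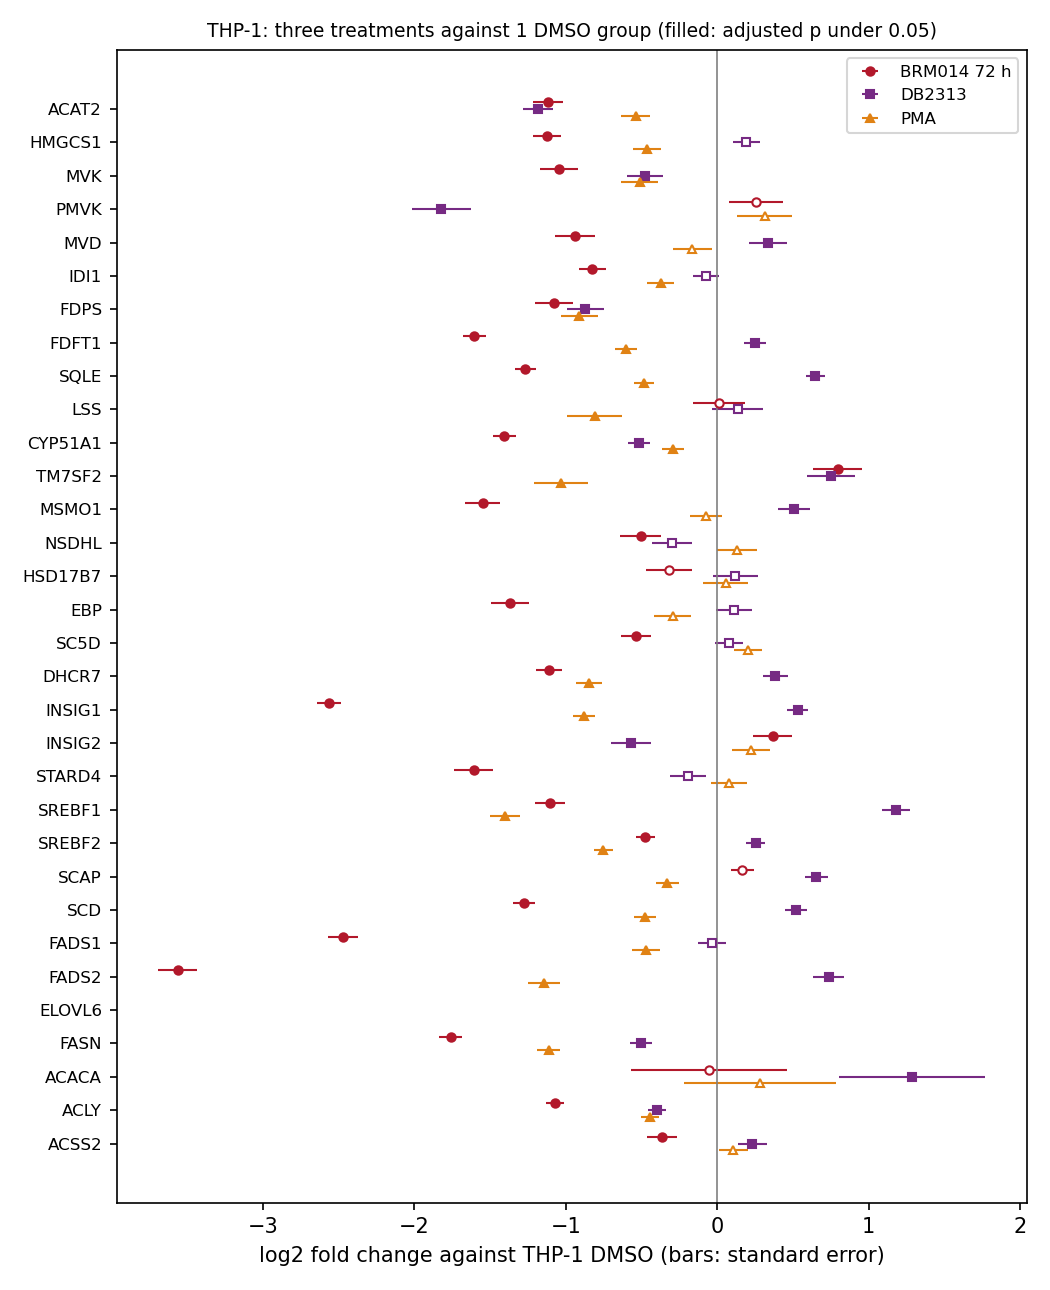
Log2 fold change against THP-1 DMSO (horizontal axis) for each gene (rows) with BRM014 at 72 h, DB2313 and PMA (symbols and colours); bars are standard errors and filled symbols have an adjusted p under 0.05. ELOVL6 is left out for its low counts; SREBF1 lies at 1.18 with DB2313, -1.10 with BRM014 and -1.40 with PMA.

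Other genes of the pathway were called in both directions, and the shares of all genes called in the same comparison follow their counts in parentheses, lower first. A list of 51 was read, with isoprenoid branch enzymes, other sterol genes, SREBP processing factors and other fatty acid genes, and 49 were tested (CH25H and THRSP were not). In MOLM-13 17 fell and 13 rose at 24 h (23.5% and 22.7%), and 19 fell and 15 rose at 72 h (29.4% and 30.3%). In MV-4-11 20 fell and 14 rose at 24 h (22.4% and 23.6%), and 17 fell and 17 rose at 72 h (26.1% and 28.4%). The count lower at 72 h was 11 without MV-4-11 BRM014 72 h replicate 1 or DMSO replicate 2. In THP-1 14 fell and 11 rose at 24 h (24.1% and 25.9%), and 20 fell and 14 rose at 72 h (28% and 30.9%). Their median log2 fold change lay between -0.19 and 0.12 in these 6 comparisons. With PMA 6 fell and 13 rose (17.1% and 18.9%), and 3 fell without THP-1 DMSO replicate 2. With DB2313 18 fell and 18 rose (29.5% and 35.9%). Lower in all 3 lines at 24 h were 10 of them (PDSS1, TMEM97, ERLIN2, SEC24D, ELOVL5, HSD17B12, ACSL4, ACSL5, MID1IP1 and FABP5).

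The 8 of these genes with the largest changes included FABP5, a fatty acid binding protein, which fell from 272 ± 1.42 to 9.74 ± 0.22 CPM in MOLM-13 by 72 h (-5.00 ± 0.14) and from 179 ± 12.1 to 18.4 ± 1.82 CPM in MV-4-11 (-3.34 ± 0.12). TMEM97, a sterol-binding protein, fell in all 6 comparisons, from -3.65 ± 0.12 in MOLM-13 at 72 h to -1.31 ± 0.10 in MV-4-11 at 24 h. PDSS1, which makes the side chain of coenzyme Q, likewise fell in all 6, from -2.63 ± 0.16 to -0.65 ± 0.14. Both, unlike SCD or HMGCS1, were as low or lower in MV-4-11 at 72 h as at 24 h: TMEM97 was at 27.9 ± 0.15 and then 24.8 ± 1.99 CPM, and PDSS1 at 20.8 ± 0.93 and then 9.63 ± 1.28 CPM. ACSL1, an acyl-CoA synthetase, rose in all 6, from 47.0 ± 2.28 to 326 ± 14.1 CPM in THP-1 by 72 h (2.71 ± 0.09). CYP27A1, a sterol hydroxylase, rose at 72 h in each line, and in MOLM-13 it went to 8.87 ± 0.73 CPM in MOLM-13 from 0.71 ± 0.25 CPM (3.46 ± 0.36). FADS3, the third gene of the FADS cluster, rose in MV-4-11 from 3.80 ± 1.24 to 22.3 ± 2.18 CPM at 72 h (2.50 ± 0.22). SOAT2 had 0 reads in both THP-1 DMSO libraries and 12 and 13 at 72 h. Levels are means ± SD of 2 libraries.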

How the data were processed

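RNA-seq was deposited for 22 libraries in 11 groups of 2, which the labels assign by line, agent and time. The authors deposited raw read counts per gene symbol, 1 table per library. Build hg38 and the tools HTSeq, DESeq2 and HISAT2 2.1.0 are listed per the submitters' processing notes; the role of each, the annotation and the strand setting are not given in the sources used here. The 5 summary lines of each table were kept out of library sizes and tests: reads outside genes were 12.03% to 19.17% of those counted and ambiguous reads 3.041% to 3.82%. Reads in genes numbered 15893489 to 21565666 per library, so that 3 reads, the limit a count of 0 allows, come to 0.139 to 0.189 CPM; this limit covers counting error only, since molecular identifiers are not mentioned.

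CPM was computed from the deposited counts over gene rows. The counts were fitted in R 4.3.3 with edgeR 4.0.16 (limma 3.58.1), TMM scaling and 1 coefficient per group over all 22 libraries, so the groups share an estimate of the spread. The filter filterByExpr, with a minimum count of 10, left 16794 of 28063 genes. The quasi-likelihood F test gave p-values for 12 comparisons of 2 groups and 3 tests between lines, adjusted by Benjamini-Hochberg over all genes tested and called under 0.05. Standard errors were taken as |log2 fold change| / sqrt(F). The code was tested on simulated data. Gene positions, exon lengths and overlaps are from GENCODE v29, and promoter sequence is from RefSeq.

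The 32 members and the lists were chosen with earlier results of these data known. Values per library are printed for the gene of each role with the largest absolute log2 fold change in any BRM014 comparison; in the tests between lines, members called in opposite directions in 2 lines are named, and up to 8 other pathway genes with the largest changes. Further members were singled out after their values were seen. Alternatives were scaling by library size alone or by RLE size factors, DESeq2 1.42.0, no filter on low counts, the replicate number as a block, only the line's libraries, leaving out the PMA and DB2313 libraries, and leaving out each library in turn. Both libraries of a group carry replicate numbers that recur in every group, and nothing in the labels says that a number marks a shared culture or day.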

Additional observations from a re-analysis of the deposited data

Results flagged for a closer look

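The effect of BRM014 against DMSO differed between the 3 lines, by edgeR's quasi-likelihood F test of both differences with Benjamini-Hochberg adjustment, in 28 of the 32 genes at 24 h and 31 at 72 h. Of all genes tested, 43.5% and 52.9% differed so. At 24 h the genes called in opposite directions in 2 lines were SREBF1 (adjusted p = 2.17e-06) and TM7SF2 (6.43e-06), both higher in THP-1 and lower in MOLM-13. The THP-1 rise of SREBF1 was not called without THP-1 DMSO replicate 1 (0.25, adjusted p = 0.0838) or BRM014 24 h replicate 2 (0.28, adjusted p = 0.0614), nor the MOLM-13 decrease of TM7SF2 without DMSO replicate 2 (-0.35, adjusted p = 0.124). At 72 h MVD (adjusted p = 2.6e-10), SC5D (7.82e-07), STARD4 (1.09e-09), SREBF1 (7.75e-11), SCD (2.11e-16) and FADS1 (1.57e-14) were higher in MV-4-11 and lower in both other lines. TM7SF2 (0.000132) was higher in THP-1 and lower in MOLM-13 at 72 h. The call of STARD4 in MV-4-11 was lost without any one of the 4 libraries compared (0.30 to 0.33, adjusted p = 0.0785 to 0.0984), and that of TM7SF2 in MOLM-13 without DMSO replicate 2 (-0.36, adjusted p = 0.0952).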

How the results depend on the processing

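Values for single genes were recomputed under each alternative, and of 9820 values over 341 gene and comparison pairs 9660 kept their direction and side of the threshold. The pairs were those called in the main fit and some named uncalled ones. Most libraries left out were not in the comparison concerned, so many of these values could hardly change. In 35 pairs a call was lost under some alternative. A call was lost in 2 values by DESeq2, 4 with scaling by library size alone, 5 without a filter, 7 with only the line's libraries and 96 on leaving out 1 library. The sensitivity of the counts over all 3 lines and of the other pathway genes was computed by alternatives chosen after seeing the data. Members called higher numbered 0 in MOLM-13 at 24 h, 1 at 72 h, 1 in THP-1 at 72 h and 1 with PMA without a filter on low counts. With scaling by library size alone they numbered 1 in MV-4-11 at 24 h, 5 in MOLM-13 from 24 h to 72 h and 1 in all 3 lines at 72 h. They numbered 5 in MOLM-13 from 24 h to 72 h without the PMA and DB2313 libraries, and 1 in MV-4-11 at 24 h and 1 in THP-1 at 72 h with only the line's libraries. Other pathway genes called lower with PMA numbered 3 with only the line's libraries. The cause of these shifts was not tested. On leaving out 1 library at a time, members called higher ranged from 0 to 1 in MOLM-13 at 24 h and 1 to 2 at 72 h, 1 to 4 in THP-1 at 24 h and 1 to 3 at 72 h. They ranged from 1 to 5 in MOLM-13 from 24 h to 72 h, 0 to 3 with PMA and 0 to 1 in all 3 lines at 72 h. Other pathway genes called lower ranged from 11 to 18 in MV-4-11 at 72 h and 3 to 8 with PMA. SREBF2 in MOLM-13 at 72 h was at 0.15 with library size alone and -0.0917 to 0.00811 with 1 library left out, and INSIG1 in MV-4-11 at 72 h was at 0.010 with library size alone.

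Deviations of libraries with the same replicate number correlated at -0.117 to 0.0852 over 55 pairs of groups, none over 0.1, so the numbers were not taken to pair the samples. With the replicate block, members called lower in MV-4-11 at 72 h numbered 11 against 10, members called higher with DB2313 16 against 15, and members that differed between lines 27 against 28 and 30 against 31. Depth limits ELOVL6 and SOAT2 in THP-1, and 2 libraries a group limit every standard error.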
